A study of Homo sapiens with 10 samples.

Results

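The integrated stress response genes described here are 39 genes that are induced through, or act in, the stress pathway of the transcription factor ATF4. They were taken as a fixed list of gene symbols, and all 39 were found among the 31015 genes with reads in the 3′ end tables. The list was chosen with earlier results of these data known. Counts of its genes beside those of all genes are therefore descriptive. The cells are 22RV1, a human prostate cancer cell line, and the 10 libraries form 5 groups of 2. Control cells carry the treatment label "None", and whether they received a solvent is not given in the sources used here. Treatment lasted 4 h. The other groups received SRPIN340 at 20 μM, an inhibitor of the splicing kinase SRPK1, Endovion (SCO-101) at 50 μM, which the study describes as another SRPK1 inhibitor, THZ531, an inhibitor of the transcription elongation kinase CDK12, or THZ531 and Endovion together. The methods give 100 nM for THZ531, whereas the description of the series gives 150 nM. All groups, the control included, received 4-thiouridine for the last 10 min. Newly made RNA takes up this nucleoside, which after alkylation is sequenced as C where the genome has T. A read with a T>C conversion (T>C read) was therefore taken to mark nascent RNA. No library was left unlabelled, so the part of the T>C reads that stems from sequencing errors or sequence variants is not known. The pairing of SRPIN340 with THZ531 was not analysed here.

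In the integrated stress response, any of 4 kinases phosphorylates the translation factor eIF2 when amino acids are short, when proteins misfold in the endoplasmic reticulum, when double-stranded RNA is present or when haem is scarce. General protein synthesis then falls, while the mRNA of ATF4 is translated more. ATF4 binds DNA with partners of the C/EBP family and induces amino acid transporters, enzymes that make serine, asparagine and one-carbon units, and feedback regulators such as CHOP (gene DDIT3) and TRIB3. Because ATF4 is controlled to a large part at translation, its own RNA level is only one step of the pathway.

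The DNA element that ATF4 binds with a C/EBP partner, the C/EBP-ATF response element, has the core TGATGNAA. RefSeq promoter windows of 300 bases (250 before to 50 after the start site, GRCh38.p14) were searched for this core on both strands. Of the 39 genes, 31 had a window, and PSPH, SHMT2, ALDH1L2, SLC7A11, NUPR1, PYCR1, EIF4EBP1 and GPT2 had none. The core was found for 8 of the 31 genes (25.8%), namely ASNS, CEBPG, CHAC1, JDP2, SLC1A4, SLC1A5, SLC3A2 and SLC7A1, and for 1217 of all 27305 genes with a window (4.46%). The related element TGACGTCA, searched in the same way and unable to match the same stretch as the first, was found in PPP1R15A alone (3.23% of the 31, against 2.25% of all genes). A match describes these letters only. The 30 bases around the core are shown for 5 of the genes that passed a test in the comparisons described here, read 5′ to 3′ on the strand of the gene, with the core in capitals. In CHAC1 and SLC1A4 the core lies on the opposite strand and is therefore seen as its reverse complement.
CHAC1, chr15:40953251-40953280, gene on the plus strand: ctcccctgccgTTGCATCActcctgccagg
CEBPG, chr19:33374060-33374089, gene on the plus strand: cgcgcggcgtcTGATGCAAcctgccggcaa
JDP2, chr14:75427995-75428024, gene on the plus strand: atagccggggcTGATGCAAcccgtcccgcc
SLC1A4, chr2:64989381-64989410, gene on the plus strand: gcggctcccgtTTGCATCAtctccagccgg
ASNS, chr7:97872458-97872487, gene on the minus strand: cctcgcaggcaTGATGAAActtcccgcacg

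The libraries held 1011598 to 1576106 T>C reads and 19315403 to 30047692 reads in all on genes, and 5.04% to 5.70% of the reads were T>C reads. Epithelial and prostate markers KRT18, EPCAM, FOXA1, HOXB13 and KRT8 each had at least 871 reads in every library, and KLK3 had 49 to 227. Markers of other cells were at 0 reads in all libraries (CD3E and COL1A2), at most 6 reads (PTPRC and PECAM1), 40 to 83 reads (COL1A1) or 117 to 205 reads (VIM). Values are counts per 1000000 (CPM) after TMM scaling, of T>C reads for nascent RNA (nascent CPM) and of all reads for total RNA (total CPM). They are relative to the library, so that less RNA of all genes in each cell, or fewer cells, cannot be told apart from no change. A gene was called when edgeR's quasi-likelihood test, fitted over all genes and all 10 libraries, gave a Benjamini-Hochberg adjusted p under 0.05. Nothing says whether the 2 libraries of a group came from separate cultures, so the p-values measure the spread between these libraries. All 4 comparisons with control share the same control libraries, and their counts are not independent of each other.

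In nascent RNA, as counted by T>C reads, a few integrated stress response genes were higher with the SRPK1 inhibitors, above all CHAC1 and SLC7A11. CHAC1, an enzyme that degrades glutathione, was 1.62 ± 0.33 (SE) higher on the log2 scale with SRPIN340 and 1.78 ± 0.34 higher with Endovion. SLC7A11, the cystine transporter, was 2.41-fold and 2.83-fold higher (SE 0.18 and 0.19 on the log2 scale). Of the 39 genes, 38 passed the filter on low counts. CBS, which makes cystathionine from homocysteine, did not, with 0 T>C reads in 6 of the libraries and at most 4 in the others. With SRPIN340, 3 of the 38 rose and 0 fell, against 0.845% of all 9946 tested genes that rose. With Endovion, 5 rose and 0 fell, against 2.04% of all genes. With THZ531, 1 rose and 1 fell (background of both directions together 7.46%). With THZ531 and Endovion, 6 rose and 0 fell, against 4.61% of all genes. At an unadjusted p under 0.05, 10 were higher and 0 lower with SRPIN340, 17 and 0 with Endovion, 6 and 9 with THZ531, and 12 and 2 with both agents. The shares of all genes at this unadjusted threshold were 6.28% higher and 4.13% lower, 8.3% and 5.77%, 10.8% and 10.4%, and 11.1% and 10.2%. The median log2 change of the 38 was 0.25, 0.44, −0.14 and 0.36 in these comparisons, in the same order, and that of all tested genes was −0.01, −0.01, −0.02 and −0.01. Genes above 0 numbered 29, 33, 16 and 31 of the 38, whereas 49.0%, 48.9%, 49.0% and 49.6% of all genes were above 0.

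**Figure D1:**
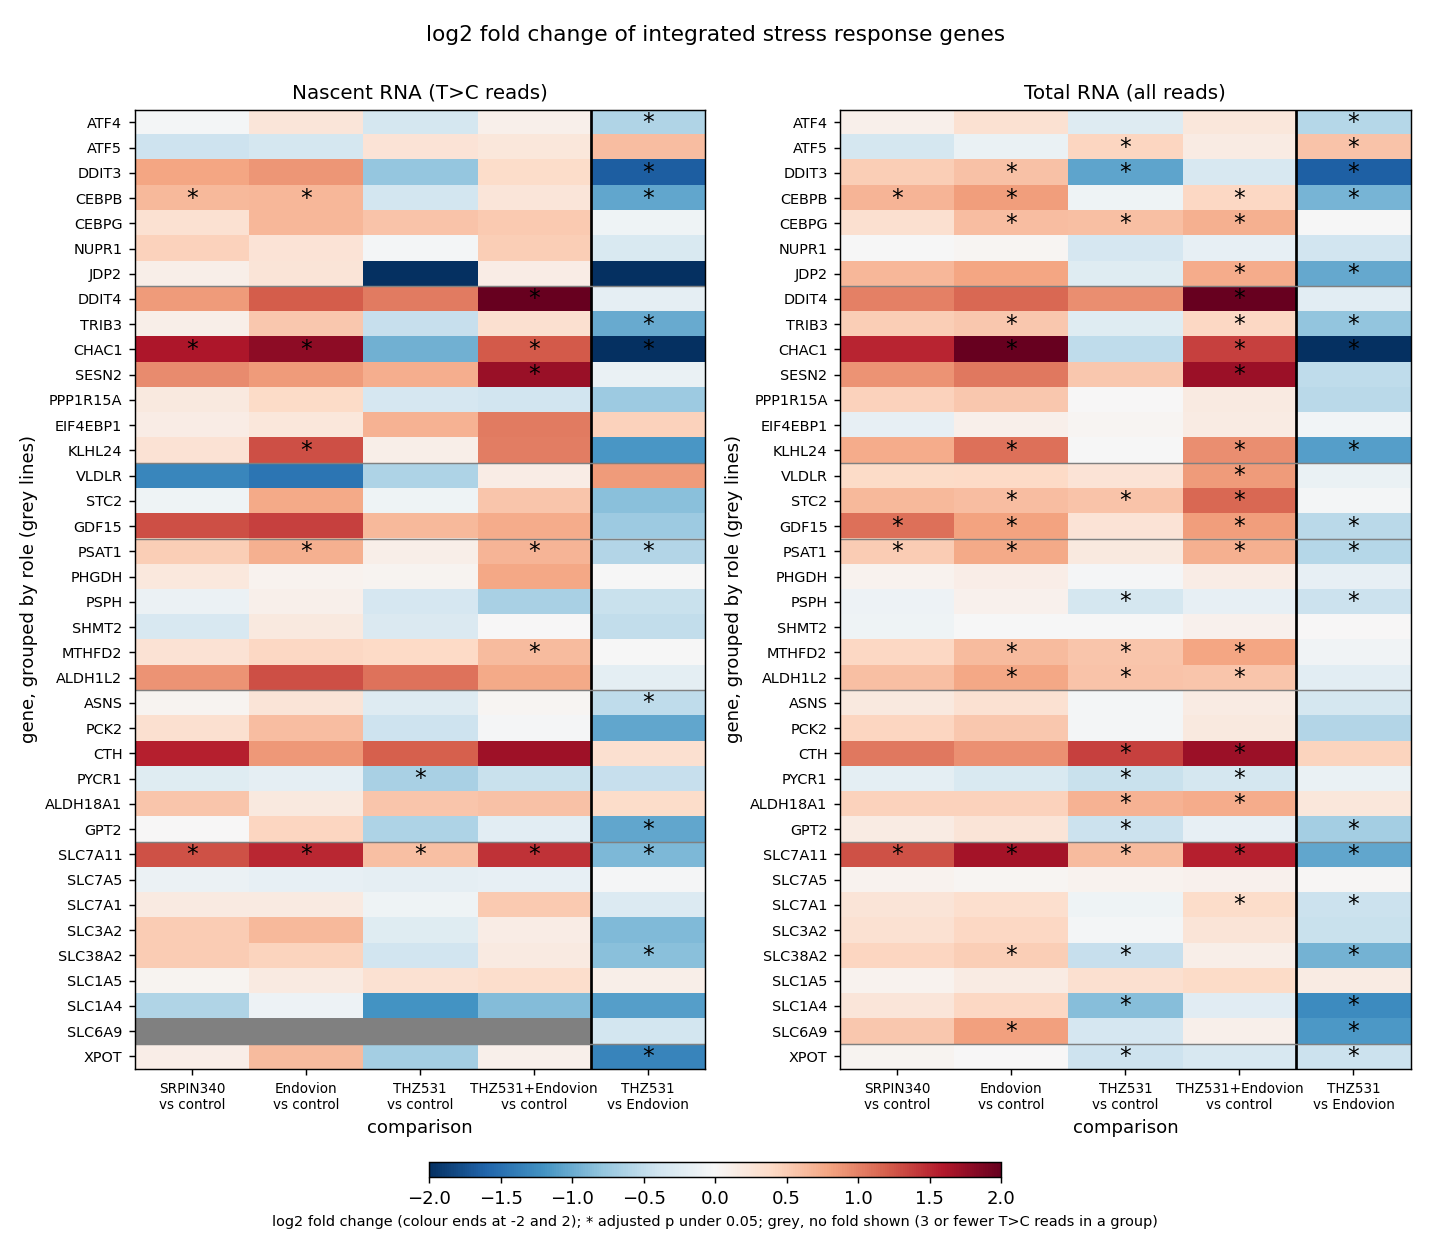
Colour gives the log2 fold change of each integrated stress response gene except CBS (rows, grouped by role) in 5 comparisons (columns), for nascent RNA on the left and total RNA on the right, and a star marks an adjusted p under 0.05. SLC7A11 has a star in all 5 columns of both panels, CHAC1 runs from red in the columns with Endovion or SRPIN340 to blue with THZ531, and the nascent values of SLC6A9 against control are grey because the control libraries held 0 and 1 T>C reads.

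Among the transcription factors, CEBPB, a partner of ATF4, was the one called against control. Its nascent RNA was at 504 and 462 nascent CPM in the control libraries, 783 and 734 with SRPIN340, 744 and 792 with Endovion, 386 and 362 with THZ531, and 652 and 493 with THZ531 and Endovion. Both SRPIN340 libraries and both Endovion libraries lay above both control libraries, with log2 changes of 0.65 ± 0.15 (edgeR adjusted p = 0.0136) and 0.67 ± 0.15 (edgeR adjusted p = 0.00432). ATF4 itself was at 606 and 660 in control, 623 and 616 with SRPIN340, 705 and 797 with Endovion, 522 and 465 with THZ531, and 810 and 548 with both agents. Its libraries overlapped those of control with SRPIN340 and with both agents, and no comparison with control passed for ATF4 (log2 change −0.03 ± 0.16, 0.25 ± 0.16, −0.36 ± 0.16 and 0.10 ± 0.16). The retained ATF4 interval is 81 bases long with 27 T positions, chr22:39522603-39522683 (hg38). DDIT3, which encodes the pro-apoptotic factor CHOP, was at 19.3 and 28.1 in control, 48.7 and 32.5 with SRPIN340, 44.5 and 42.3 with Endovion, 11.7 and 16.3 with THZ531, and 32.2 and 28.5 with both. All SRPIN340, Endovion and combination libraries were above control and both THZ531 libraries below it, but none of the 4 differences passed (lowest adjusted p = 0.275, for Endovion). DDIT3 had 16 to 72 T>C reads per library, and its interval overlaps MARS1 on the opposite strand. ATF5, CEBPG, NUPR1 and JDP2 did not pass in any comparison of nascent RNA with control. JDP2, which dimerizes with other bZIP factors, had 3 and 1 T>C reads with THZ531 and 4 and 22 in control.

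Among the regulators, CHAC1 was at 27.7 and 20.1 nascent CPM in control, 72.4 and 76.4 with SRPIN340, 80.6 and 85.6 with Endovion, 16.9 and 6.10 with THZ531, and 57.6 and 55.1 with both agents. The lowest of the SRPIN340, Endovion and combination libraries was above the highest control library, and both THZ531 libraries were below the lowest. The changes passed for SRPIN340 (adjusted p = 0.00274), Endovion (adjusted p = 0.000387) and the combination (1.23 ± 0.35, adjusted p = 0.0157), and the value for THZ531 was −0.96 ± 0.40 (adjusted p = 0.139, edgeR throughout). CHAC1 had 6 to 122 T>C reads per library. Its call with SRPIN340 was lost in 3 of 18 other settings (log2 change 1.42 to 1.90 over the 18). These were the plain sum of a gene's intervals and the fits without the second control or the second SRPIN340 library. The combination call was lost in 4 of 18, with the plain sum, without the second control library and without either combination library. The Endovion call was lost with the plain sum alone. In total RNA CHAC1 was not called with SRPIN340.
DDIT4, which inhibits the growth kinase complex mTORC1, was at 28.3 and 8.83 in control, 36.5 and 32.5 with SRPIN340, 49.1 and 39.4 with Endovion, 47.5 and 29.5 with THZ531, and 125 and 74.7 with THZ531 and Endovion. Every treated library lay above both control libraries, but only the combination passed (2.39 ± 0.37, edgeR adjusted p = 6.9e-06), and the control libraries differed from each other by more than those of any other group in ratio. SESN2, another inhibitor of mTORC1 signalling that senses leucine, was at 48.3 and 46.5 in control, 107 and 76.4 with SRPIN340, 85.2 and 86.6 with Endovion, 89.2 and 66.1 with THZ531, and 200 and 112 with both. Here too each treated library was above control, and the combination passed (1.72 ± 0.27, edgeR adjusted p = 6.63e-06). The other SESN2 values were 0.95 ± 0.27, 0.85 ± 0.28 and 0.72 ± 0.28 for SRPIN340, Endovion and THZ531, with adjusted p between 0.071 and 0.0985. KLHL24, a ubiquitin ligase adaptor, rose with Endovion, from 27.0 and 24.9 to 72.9 and 53.9 (1.29 ± 0.36, edgeR adjusted p = 0.0335). Its other libraries were at 35.9 and 28.2 with SRPIN340, 29.9 and 26.4 with THZ531, and 72.0 and 33.4 with both agents, all above the lower control library. The KLHL24 call with Endovion was lost with DESeq2, with the plain sum of a gene's intervals, with scaling by all reads, and without any 1 of the 4 libraries compared (adjusted p up to 0.391). TRIB3, PPP1R15A and EIF4EBP1 were not called in nascent RNA against control.

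**Figure D2:**
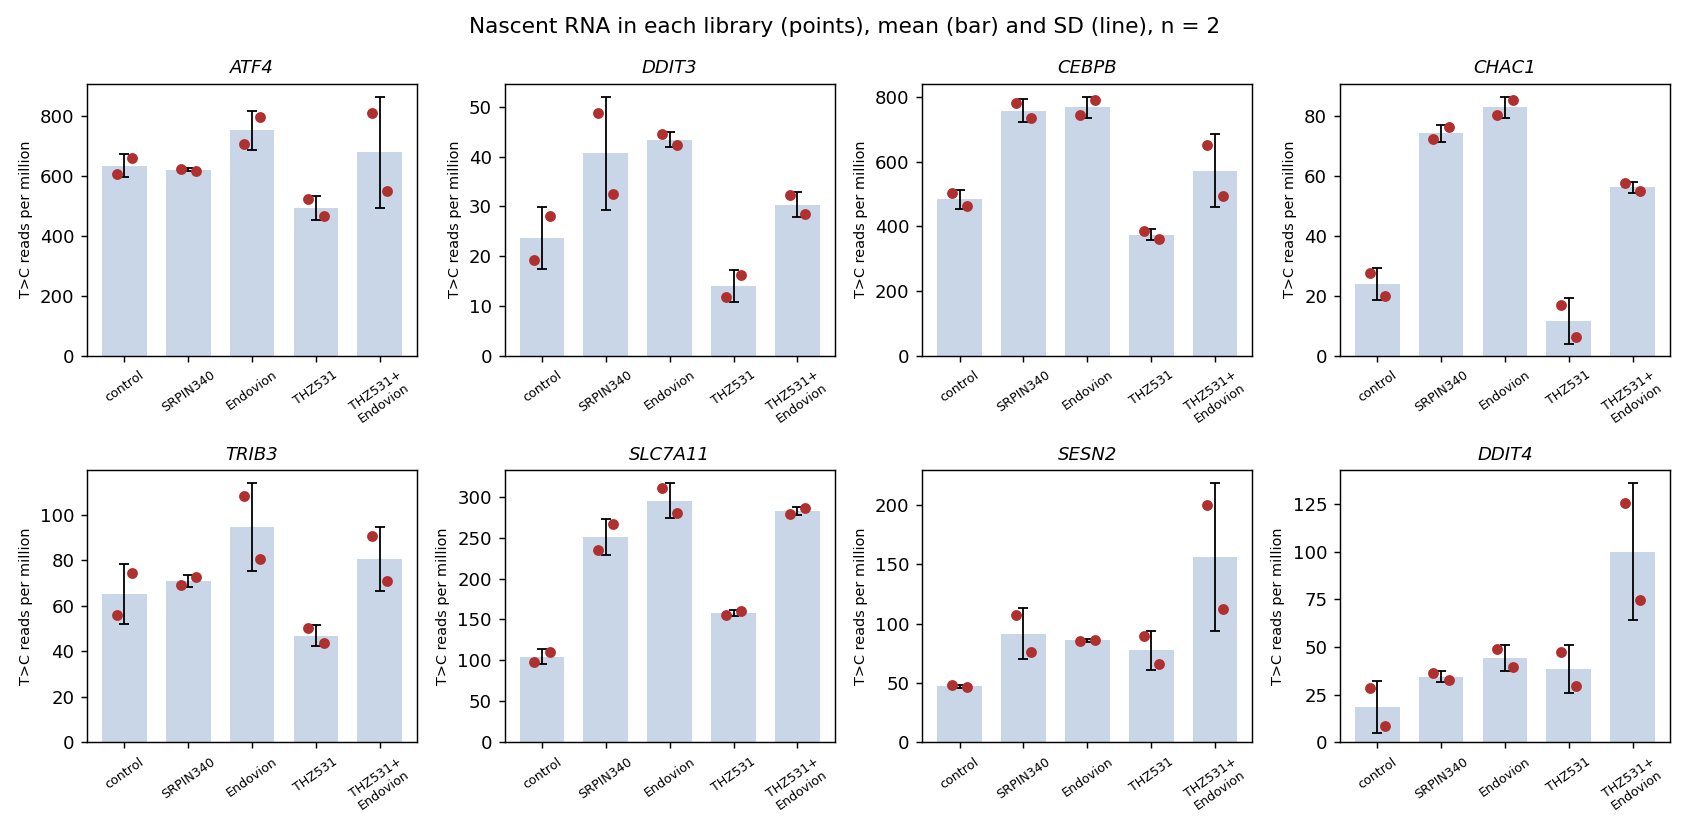
Nascent CPM, the T>C reads scaled to the library (vertical axis, from 0) in each of the 10 libraries (points) for 8 integrated stress response genes, with the mean of the 2 libraries of each group (bars) and their SD (lines). CHAC1 and SLC7A11 are high in all libraries with SRPIN340 or Endovion, and SESN2 and DDIT4 reach their highest values, 200 and 125, in the first library with THZ531 and Endovion.

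Of the 6 serine and one-carbon enzymes, 2 passed. PSAT1, which makes phosphoserine, was at 194 and 182 in control, 288 and 240 with SRPIN340, 275 and 342 with Endovion, 192 and 218 with THZ531, and 313 and 292 with both. It rose with Endovion (0.71 ± 0.18, edgeR adjusted p = 0.0115) and with the combination (0.69 ± 0.18, edgeR adjusted p = 0.00753), and the THZ531 libraries overlapped control. MTHFD2, the mitochondrial folate enzyme, was at 405 and 414 in control, 496 and 503 with SRPIN340, 514 and 576 with Endovion, 503 and 581 with THZ531, and 681 and 586 with both, and the combination passed (0.63 ± 0.15, edgeR adjusted p = 0.00444). All treated libraries of MTHFD2 were above control, and its interval overlaps SLC4A5 on the opposite strand. PHGDH, PSPH, SHMT2 and ALDH1L2 did not pass. Of the 6 other metabolic enzymes tested, PYCR1, which makes proline, fell with THZ531, from 234 and 248 to 171 and 136 (−0.64 ± 0.19, edgeR adjusted p = 0.0222). The other PYCR1 libraries were at 220 and 186 with SRPIN340, 212 and 212 with Endovion, and 176 and 177 with both agents, all below control. ASNS, asparagine synthetase, changed by −0.25 to 0.26 in the 4 comparisons and passed in none, nor did PCK2, CTH, ALDH18A1 or GPT2.

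Of the 8 transporters, SLC7A11 was called in each of the 4 comparisons with control and no other transporter in any of these 4. It was at 97.8 and 111 nascent CPM in control, 235 and 266 with SRPIN340, 310 and 280 with Endovion, 155 and 161 with THZ531, and 279 and 286 with both agents. No treated library overlapped control, and the THZ531 libraries lay between control and the other treatments. The edgeR adjusted p was 1.66e-05 for SRPIN340, 1.03e-07 for Endovion, 0.0382 for THZ531 (0.60 ± 0.19) and 1.56e-07 for the combination (1.44 ± 0.19). The SLC7A11 call with THZ531 was lost in 9 of 18 other settings. It was lost without a filter on low counts, with only the groups compared and with the plain sum of a gene's intervals. It was also lost without either control, either THZ531 or either SRPIN340 library. The log2 change of SLC7A11 with THZ531 was 0.52 to 0.69 over the 18 other settings, those without 1 library included. Reads of its interval, chr4:138164097-138171955 (hg38, minus strand), may be shared with SLC7A11-AS1 on the opposite strand. SLC7A5 and SLC3A2, which together form the leucine transporter, changed by −0.18 to −0.12 and by −0.24 to 0.64. SLC6A9, a glycine transporter, had 0 and 1 T>C reads in the control libraries and 3 to 12 elsewhere, too few to give a fold. The secreted and surface proteins GDF15, STC2 and VLDLR, and XPOT, the exporter of tRNA, did not pass in nascent RNA against control.

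SLC7A11 with Endovion, and SLC7A11, SESN2 and DDIT4 with the combination, passed with any single library left out and under all other settings tried. CHAC1 with Endovion and SLC7A11 with SRPIN340 were lost with the plain sum of intervals alone. The other calls against control depended on single libraries. Without the second control library 1 gene was called with SRPIN340, 2 with Endovion and 0 with THZ531. Without the second SRPIN340 library 1 was called with SRPIN340, without the second Endovion library 2 with Endovion, without the second THZ531 library 0 with THZ531, and without the first combination library 3 with the combination. The THZ531 count was also 1 without either SRPIN340 library.

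Of the nascent comparisons, THZ531 against Endovion, which share no libraries, had the most calls. Of the 38 genes, 11 were lower with THZ531 than with Endovion and 0 were higher, against 2.68% of all genes lower. At an unadjusted p under 0.05, 19 were lower and 1 higher, against 8.64% and 6.69% of all genes. The median log2 difference of the 38 was −0.50, that of all genes −0.00, and 6 of the 38 were above 0 against 49.8% of all genes. CHAC1 differed most of the 11 (−2.75 ± 0.37, edgeR adjusted p = 4.24e-07), followed by DDIT3 (−1.66 ± 0.42, edgeR adjusted p = 0.0117). CEBPB (−1.04 ± 0.15, edgeR adjusted p = 4.4e-06) and ATF4 (−0.60 ± 0.16, edgeR adjusted p = 0.0133) were lower as well. The feedback inhibitor TRIB3 was at 50.1 and 43.7 nascent CPM with THZ531 and 108 and 80.8 with Endovion (−1.01 ± 0.28). Of the transporters, SLC38A2, which takes up neutral amino acids, was at 268 and 205 against 381 and 471 (−0.84 ± 0.17), and SLC7A11 differed by −0.90 ± 0.18. Of the enzymes, ASNS was at 960 and 773 against 1085 and 1387 (−0.51 ± 0.15), PSAT1 differed by −0.59 ± 0.18, and GPT2, an alanine aminotransferase, was at 44.9 and 33.6 against 82.9 and 80.8 (−1.04 ± 0.30). XPOT was at 26.0 and 46.8 against 79.8 and 98.1 (−1.32 ± 0.32). In all 11 genes both THZ531 libraries were below both Endovion libraries. The 11 were picked by a test on these same libraries, so this separation adds no further evidence. The genes on the other side of 0 were VLDLR, ATF5, EIF4EBP1, ALDH18A1, CTH and SLC1A5, of which none passed. KLHL24 lay just outside the threshold (−1.16 ± 0.36, edgeR adjusted p = 0.0501).

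Leaving out 1 library changed the number of genes lower with THZ531. It was 5 without the first and 4 without the second THZ531 library, and 7 without the first and 4 without the second Endovion library. CHAC1, CEBPB and SLC7A11 passed in each of these fits. With T>C reads scaled by the library factors of all reads, the median of all genes moved to 0.11 in this comparison and that of the 38 genes to −0.38, and 6 of the 11 passed. Endovion against control was the other comparison whose median over all genes moved by about as much, to −0.10, and 3 of the genes passed there.

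**Figure D3:**
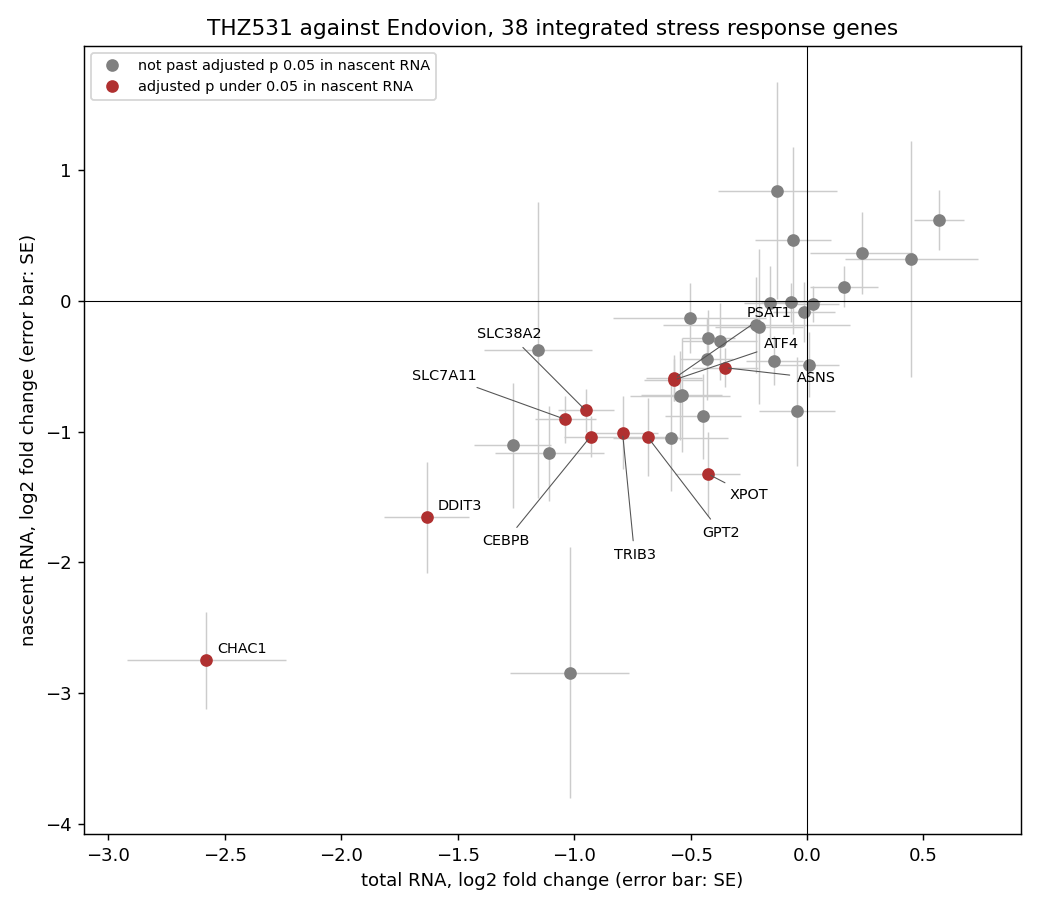
Log2 fold change of THZ531 against Endovion in total RNA (horizontal axis) and nascent RNA (vertical axis) for 38 genes, with SE as grey lines and the 11 genes that passed in nascent RNA in red. All 11 lie below 0 on both axes, from CHAC1 (nascent −2.75, total −2.58) to ASNS (nascent −0.51, total −0.35), and the T>C reads are part of the reads of the other axis.

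Endovion added to THZ531 was compared with THZ531 alone. CHAC1 was 2.19 ± 0.38 higher (edgeR adjusted p = 0.000701) and SLC7A11 0.84 ± 0.18 higher (edgeR adjusted p = 0.0128), and these 2 genes were the only ones of the 38 called, against 0.141% of all genes called higher. The median log2 difference of the 38 was 0.43, that of all genes 0.02. The count depended on the libraries. It was 0 without the second and 1 without the first THZ531 library, 1 without the first and 4 without the second combination library, and 5 without either control library. A comparison of the combination with Endovion alone called 0 of the 38 (4 higher and 4 lower at an unadjusted p under 0.05, where 4.56% and 6.29% of all genes were, and 0 called by DESeq2), against 1.31% of all genes. DDIT4 had the smallest p of these (1.17 ± 0.35, edgeR adjusted p = 0.0826), followed by SESN2 (0.87 ± 0.26, edgeR adjusted p = 0.0849). The count was 1 without either control library and without the second combination library. Endovion and SRPIN340 could not be told apart for any of the 38 (0 called, 3 higher and 0 lower with Endovion at an unadjusted p under 0.05, where 2.08% and 1.82% of all genes were, 0 called by DESeq2, background 0.0603%). The difference was 0.16 ± 0.31 for CHAC1, 0.24 ± 0.18 for SLC7A11, 0.02 ± 0.15 for CEBPB and 0.99 ± 0.35 for KLHL24. The test of whether the effect of Endovion differed in the presence of THZ531 called 0 of the 38 (1 higher and 2 lower at an unadjusted p under 0.05, where 3.13% and 4.57% of all genes were, 0 called by DESeq2, background 0.302%). SLC7A11 had the smallest p in it (−0.66 ± 0.26, edgeR adjusted p = 0.458).

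In total RNA all 39 genes were tested, among 14689 in all. With SRPIN340, 4 rose and 0 fell, against 1.82% of all genes that rose, and with Endovion 14 rose and 0 fell, against 8.9%. THZ531 called 8 higher and 7 lower (background of both directions 30.7%), and THZ531 with Endovion 18 higher and 1 lower (background of both directions 29%). The 4 genes with SRPIN340 were SLC7A11 (1.27 ± 0.13), GDF15 (1.10 ± 0.17), CEBPB (0.68 ± 0.11) and PSAT1 (0.50 ± 0.12). GDF15, a secreted stress hormone that lowers appetite, was at 23.7 and 31.2 total CPM in control, 62.2 and 55.3 with SRPIN340, 42.0 and 54.1 with Endovion, 36.5 and 29.5 with THZ531, and 53.6 and 43.9 with both agents. Only the THZ531 libraries overlapped control. With Endovion the largest rises were those of CHAC1 (2.08 ± 0.33), SLC7A11 (1.66 ± 0.13) and KLHL24 (1.11 ± 0.23), and DDIT3 (0.58 ± 0.18, edgeR adjusted p = 0.0496) and TRIB3 (0.54 ± 0.15, edgeR adjusted p = 0.0293) passed too. The DDIT3 call was lost in 12 of 17 other settings, among them RLE normalization, the plain sum of intervals and leaving out either control or either Endovion library (adjusted p up to 0.339). That of PSAT1 with SRPIN340 was lost in 11 of 17 (adjusted p up to 0.479).

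In total RNA THZ531 moved genes of the list in both directions. It called 15 of the 39, where 30.7% of all tested genes were called. The count therefore sets the list little apart from other genes. The 8 that rose were CTH, which makes cysteine from cystathionine (1.36 ± 0.30), ALDH18A1, which acts in proline synthesis (0.70 ± 0.22), SLC7A11 (0.63 ± 0.13), CEBPG (0.61 ± 0.13), ALDH1L2 (0.57 ± 0.19), STC2 (0.57 ± 0.17), MTHFD2 (0.56 ± 0.13) and ATF5 (0.43 ± 0.11). The 7 that fell were DDIT3 (−1.05 ± 0.18), SLC1A4, a transporter of small neutral amino acids (−0.85 ± 0.16), SLC38A2 (−0.46 ± 0.12), PYCR1 (−0.44 ± 0.12), XPOT (−0.42 ± 0.14), GPT2 (−0.42 ± 0.13) and PSPH, the last enzyme of serine synthesis (−0.35 ± 0.11). DDIT3 was at 67.8 and 62.3 total CPM in control and at 33.8 and 28.8 with THZ531. With both agents PYCR1 was the one gene lower (−0.36 ± 0.12), and the largest rises were those of DDIT4 (2.12 ± 0.42), CTH (1.72 ± 0.30), SESN2 (1.71 ± 0.34) and SLC7A11 (1.56 ± 0.13). Over the 4 comparisons 27 of the 39 genes were called at least once in total RNA and 9 in nascent RNA. Of all tested genes, 39.9% were called at least once in total RNA and 11.8% in nascent RNA. ASNS, ATF4, CBS, EIF4EBP1, NUPR1, PCK2, PHGDH, PPP1R15A, SHMT2, SLC1A5, SLC3A2 and SLC7A5 were called in neither.

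THZ531 against Endovion was also compared in total RNA, a comparison added after the nascent values had been seen. It called 17 genes lower and 1, ATF5, higher (0.57 ± 0.11), against 18.6% of all genes in both directions. Of the 11 genes lower in nascent RNA, 10 were lower in total RNA too and ASNS did not pass (−0.35 ± 0.14, edgeR adjusted p = 0.0957). Of all 267 genes lower in nascent RNA, 89.9% were lower in total RNA, which contains the T>C reads. XPOT, 1 of the 10, was lost in total RNA in 10 of 17 other settings, DESeq2, RLE normalization and the plain sum among them (adjusted p up to 0.263). The largest differences were those of CHAC1 (−2.58 ± 0.34), DDIT3 (−1.63 ± 0.18), SLC1A4 (−1.26 ± 0.16), SLC6A9 (−1.15 ± 0.23) and KLHL24 (−1.11 ± 0.23). The count of 18 was 11 without the second Endovion library. Against control, the counts in total RNA also rested on single libraries. Without the first or the second control library 9 or 2 genes were called with SRPIN340, and without the second SRPIN340 library 1. Endovion called 4 without the second control library or the second Endovion library and 6 without the first Endovion library. THZ531 called 8 without the second control library and 6 without the second THZ531 library, and the combination called 8 without the second control library and 9 without its first library.

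As far as T>C reads mark nascent RNA, the share of a gene's reads that carry a conversion tells whether nascent and total RNA moved together. No integrated stress response gene was called for it in any of the 4 comparisons with control by edgeR. At an unadjusted p under 0.05 (edgeR), 1 gene was higher and 3 lower with SRPIN340, 2 and 3 with Endovion, 1 and 2 with THZ531, and 3 and 1 with both. Of all genes, 2.05% were higher and 5.99% lower at this threshold with SRPIN340, 1.54% and 9.64% with Endovion, 3.05% and 6.81% with THZ531, and 2.71% and 9.97% with both. With adjusted p the background was 0.0603%, 0.271%, 0.0905% and 0.804% of all genes called. The median log2 change of the share was −0.05, −0.09, −0.09 and −0.12 for the 38 genes and −0.11, −0.19, −0.09 and −0.16 for all genes. For SLC7A11 the share changed by −0.04 ± 0.19, −0.26 ± 0.18, −0.00 ± 0.23 and −0.17 ± 0.18, and for CHAC1 by 0.11 ± 0.34, −0.40 ± 0.35, −0.52 ± 0.42 and −0.17 ± 0.37. For CHAC1 a change in share would have to be several times these errors to be called, so smaller ones could have been missed.

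In control cells the genes differed widely in their rate of T>C conversion. How much of this rate is labelling cannot be told without unlabelled libraries. Conversions per 1000 covered T positions do not depend on the length of the interval. PPP1R15A, the phosphatase subunit that ends eIF2 phosphorylation, had the highest rate, at 11.2 ± 1.05 (SD, n = 2). It was followed by VLDLR (10.3 ± 0.051), CEBPB (8.17 ± 0.49), ASNS (7.43 ± 0.086) and SLC1A5 (7.10 ± 0.28). VLDLR rests on 16 and 22 T>C reads and did not differ from PPP1R15A beyond their spread. DDIT3 (1.03 ± 0.30), PHGDH (1.17 ± 0.20), ATF4 (1.20 ± 0.43) and GDF15 (1.22 ± 0.070) were at the low end, apart from SLC6A9 and CBS with at most 1 T>C read. DDIT3, PHGDH, ATF4 and GDF15 did not differ from each other beyond their spread. The share of labelled reads orders the genes differently. By that share ATF4, at 6.45% ± 0.43, was above the 5.63% and 5.70% of all reads in the control libraries, while NUPR1 (1.96%), DDIT3 (1.97%) and PHGDH (1.98%) were lowest among genes with more than 1 T>C read per library. The conversion rate over all genes was 2.48 ± 0.0078, and 14 of the 39 genes were above it.

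Genes around the list were described from 3 further lists. Of 23 upstream factors (the eIF2 kinases, eIF2 and eIF2B subunits, phosphatase and re-initiation factors), 0 were called by edgeR in nascent RNA with SRPIN340, Endovion or THZ531. At an unadjusted p under 0.05, 3, 4 and 2 were called in either direction. Of all genes, 6.28% were higher and 4.13% lower at this threshold with SRPIN340, 8.3% and 5.77% with Endovion, and 10.8% and 10.4% with THZ531. GCN1, an activator of the kinase GCN2, was lower with the combination (−0.48 ± 0.16), where 8.12% of all genes were called in either direction. EIF2AK3, the kinase PERK, was lower with THZ531 than with Endovion (−1.49 ± 0.46, edgeR adjusted p = 0.048), but the libraries overlapped. It was at 18.9 and 8.13 nascent CPM with THZ531 (29 and 8 T>C reads) and 18.4 and 62.5 with Endovion (24 and 65 T>C reads). In total RNA the phosphatase subunit PPP1R15B rose in all 4 comparisons, by 1.42 ± 0.23 with SRPIN340, 1.98 ± 0.23 with Endovion, 1.05 ± 0.23 with THZ531 and 1.61 ± 0.23 with both. Of all genes, 1.96%, 11.4%, 30.7% and 29% were called in either direction there. PPP1R15B was not alone in this direction. EIF2AK3, EIF2S3, EIF2A, EIF2D, IMPACT, DNAJC3 and NCK1 also had every treated library above both control libraries in total RNA, and EIF2B4 every one below. Tests of the other upstream factors are not listed for total RNA, and the share of all genes separated in this way was not counted. Of 33 other genes known to be induced through ATF4 or CHOP, 28 were tested in nascent RNA. Of these, 0 were called by edgeR with SRPIN340 (8 higher at an unadjusted p under 0.05, where 6.28% of all genes were), 2 were higher with Endovion, 3 higher and 2 lower with THZ531, and 7 higher with both. The shares of all genes called in either direction were 1.04%, 2.66%, 7.46% and 8.12% in these 4 comparisons. HERPUD1, a factor in the degradation of misfolded proteins, rose with Endovion (1.15 ± 0.25) and was lower with THZ531 than with Endovion (−1.45 ± 0.26), as were ADM2 (−2.16 ± 0.43) and AARS1 (−0.62 ± 0.17), the alanyl-tRNA synthetase. ATF3 (1.24 ± 0.33), TARS1 (1.32 ± 0.26), the threonyl-tRNA synthetase, and the death receptor TNFRSF10B (1.70 ± 0.36) rose with THZ531 and Endovion together.

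The ATF6 and XBP1 arm of the unfolded protein response, which controls chaperones of the endoplasmic reticulum, was described by 20 genes. In THZ531 against Endovion 1 was higher (PDIA3) and 1 lower (SEL1L), against 4.39% of all genes called in either direction. The median log2 difference was 0.06. Its genes SEC61B and XBP1 rose with SRPIN340, SEC61B with Endovion, and HSP90B1 (0.70 ± 0.16), DNAJB9 (1.73 ± 0.50) and SEC61B (0.85 ± 0.18) with THZ531, with which SEL1L fell (−0.75 ± 0.24). With THZ531 and Endovion together SEC61B (1.24 ± 0.18), DNAJB9 (1.54 ± 0.51) and HSP90B1 (0.58 ± 0.16) rose. DNAJB9 had only 19 and 7 T>C reads in control. Of all genes, 1.04%, 2.66%, 7.46% and 8.12% were called in either direction with SRPIN340, Endovion, THZ531 and both agents. The difference between the lists was not tested.

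**Figure D4:**
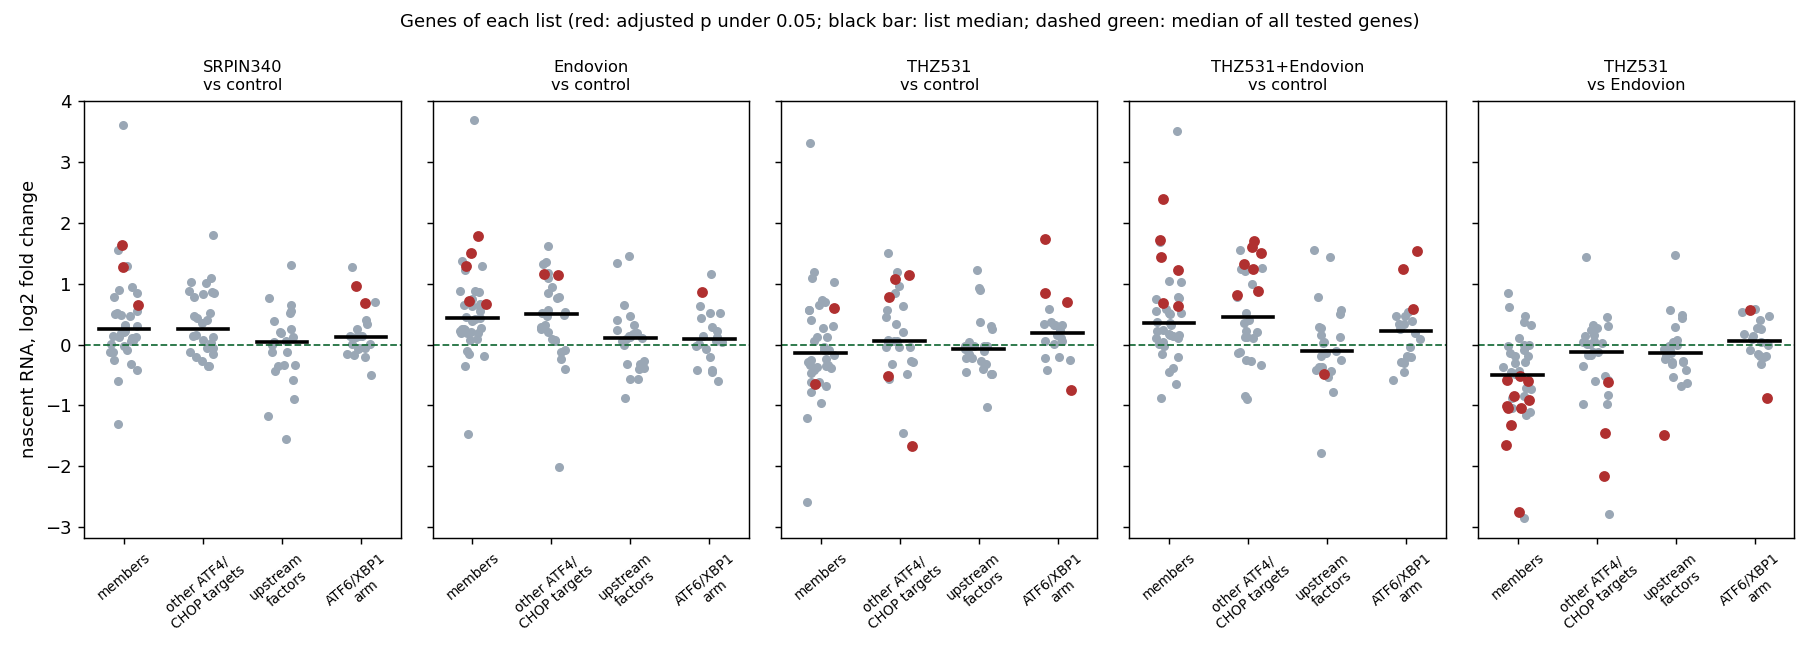
Nascent log2 fold change (vertical axis) of the genes of 4 lists (the integrated stress response genes are marked members) in 5 comparisons, red where the adjusted p was under 0.05, with the median of each list (black bar) and of all tested genes (dashed line). The integrated stress response genes have a median of 0.44 with Endovion and −0.50 for THZ531 against Endovion, and their point above 3 against control is SLC6A9, whose control libraries held 0 and 1 T>C reads.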

How the data were processed

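The authors sequenced 3′ ends of alkylated RNA and ran SLAM-DUNK, which gave per library 1 row for each interval at a 3′ end. Of the deposited columns, the raw counts were used: covered T positions, conversions, T>C reads and reads. The deposited conversion rate, a fraction, and a CPM column handled as a score were not used. The notes of the submitters name hg38, Bowtie2 2.3.4.1, SAMtools 1.6 and DESeq2 1.38.2. The settings of SLAM-DUNK, and whether molecular identifiers were collapsed, are not given in the sources used here, so reads may not be independent molecules.

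Of 104653 intervals, 92826 matched GENCODE v44, and 3.53% of T>C reads did not match. Of overlapping intervals of a gene the best covered was kept, because a plain sum counts 48.8% of its T>C reads again. For all 47 intervals of the 39 genes the T content equalled that of hg38. edgeR 4.0.16 (R 4.3.3, TMM, filterByExpr, glmQLFit robust, 5 residual degrees of freedom) was fitted to group means, and the share by the interaction of treatment and read class with library as a block. SE is the log2 change over the root of F. DESeq2 1.42.0 and the other settings of the closing section were alternatives. The scripts were tested on simulated counts. In every group the replicate libraries differed beyond counting noise (chi-square per degree of freedom 3.43 to 4.74). All 39 genes are accounted for, and each library's value is given for genes called in nascent RNA against control and for ATF4 and DDIT3. The genes and the 3 further lists were chosen with earlier results of these data known.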

Additional observations from a re-analysis of the deposited data

How the results depend on the processing

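No called gene changed direction under any alternative. Of 522 gene values in nascent RNA 430 stayed past the threshold and 92 did not, and of 1190 in total RNA 1012 did and 178 did not. The cause of the shifts below was not tested. The share of all genes called is not given for these settings or for the fits without 1 library. A shift in a count therefore cannot be told apart from a shift over all genes. With the threshold of the methods (unadjusted p under 0.05 and a log2 change of at least 1), nascent RNA called 4 genes with THZ531, 4 for the combination against THZ531, 1 for the combination against Endovion and 1 in the interaction. Under it total RNA called 5 with Endovion, 2 with THZ531, 6 with the combination and 7 for THZ531 against Endovion, and the labelled share 2, 2, 2 and 1 with SRPIN340, Endovion, THZ531 and the combination. DESeq2 called 10 in total RNA with SRPIN340. Without a filter on low counts nascent RNA called 1 with THZ531, 5 for the combination against THZ531 and 1 for it against Endovion, and total RNA 14 with SRPIN340. With only the groups compared in the fit, nascent RNA called 0 with THZ531, and total RNA 1 with SRPIN340 and 12 with the combination. With the plain sum of intervals nascent RNA called 0 with SRPIN340, 1 with Endovion, 1 with THZ531, 0 for the combination against THZ531 and 4 for THZ531 against Endovion, and total RNA 1 with SRPIN340. Scaled by all reads, nascent RNA called 3 with Endovion and 6 for THZ531 against Endovion.

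Leaving out 1 library at a time, where the lone library of a group is assumed to vary like the others, nascent RNA called 1 to 4 genes with SRPIN340, 2 to 5 with Endovion, 0 to 2 with THZ531, 3 to 6 with the combination, 0 to 5 for the combination against THZ531, 0 to 1 for it against Endovion, 4 to 13 for THZ531 against Endovion, and 0 for Endovion against SRPIN340 and in the interaction. Total RNA called 1 to 9, 4 to 15, 6 to 17 and 8 to 18 in the 4 comparisons with control and 11 to 18 for THZ531 against Endovion. The labelled share called 0 throughout.

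Same-numbered libraries showed no clear shared deviation (correlations of −0.071 to 0.062 between pairs). Counting noise pulls such correlations toward 0, so they cannot exclude that the numbers pair the samples. With the replicate number as a block, the combination against THZ531 called 5 genes in place of 2, and no other count moved by more than 1.5 times. Genes with few T>C reads (CBS, SLC6A9, JDP2, CTH and VLDLR, each with at most 2 in its lowest library) allow no firm statement on nascent RNA.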
